A study of Mus musculus with 48 samples.

Results

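Apolipoproteins are the proteins that hold lipoprotein particles together, direct them to enzymes and receptors, and decide how fast their fat is cleared from blood. The genes described here were 10, chosen by name: Apoa1, Apoa2, Apoa5, Apoc1, Apoc2, Apoc3, Apoe, Apoh and Apom, together with Lcat, whose enzyme esterifies cholesterol on HDL. They were followed in the mRNA of 6 mouse tissues, 9 days after Roux-en-Y gastric bypass (RYGB) or sham surgery. All 10 were found by symbol, each with 1 Ensembl ID, among the 15541 genes that the 6 tables listed between them. The liver table listed all 10 of them among 11843 genes. The duodenal and jejunal tables listed 5 each, the ileal and the white adipose tissue (WAT) lists held 4 each, and muscle held only Apoe.

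RYGB connects a small pouch of the stomach directly to the jejunum, and nutrients then skip the duodenum. All mice were male C57Bl6 animals made obese by a high fat diet, and both the RYGB and the sham mice were moved to an elemental liquid diet after surgery. They were fasted overnight and killed at the same hour of the morning. Their ages are not given. The labels mention a return to the high fat diet after the 9 days on liquid diet, and leave unstated whether sham mice were matched for weight. The intestinal samples were villi scraped off after EDTA. There were 48 libraries: 4 RYGB and 4 sham in liver, in WAT and in skeletal muscle, 3 RYGB and 4 sham in duodenum and in jejunum, and 5 and 5 in ileum. The labels do not say which libraries of different tissues came from the same mouse.

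The liver and the small intestine are the organs that secrete lipoproteins. Apoa1 is the main protein of HDL and activates Lcat, and Apoa2 is its companion on HDL. Apoc2 is the cofactor that lipoprotein lipase needs, Apoc3 restrains that lipolysis and the hepatic uptake of remnants, Apoa5 favours it, and Apoc1 inhibits several steps of it. Apoe is the ligand through which remnants bind their receptors and is also made by macrophages and adipocytes. Apom carries sphingosine-1-phosphate on HDL, and Apoh is a plasma phospholipid-binding protein.

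Levels are given in CPM, the counts of a gene scaled to the same library total. Total counts are not part of the tables, so the sequencing depth is unknown and no interval from counting was computed. The columns summed to between 925122 and 998777 CPM, the lowest being sham 2 of the duodenum. Fold changes are RYGB against sham on the log2(CPM + 1) scale, fitted with limma for each tissue over every gene that averaged 1 CPM or more, and all listed genes of the set passed this filter. A gene was called changed at a Benjamini-Hochberg adjusted p-value under 0.05 over all genes of the tissue and a fold of at least 1.5. With no statement of separate cultures or animals for each label, p-values measure the spread between these libraries. In bulk tissue, fewer cells of a type and less RNA per cell cannot be told apart. A higher share of a few abundant transcripts also lowers the CPM of all others.

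The labelled tissues were checked against marker genes. The 7 hepatocyte markers summed to between 88167 and 127775 CPM in the liver libraries, and the 7 listed enterocyte markers to between 25238 and 52614 CPM over the intestinal libraries. The libraries labelled ileum were low in the markers that set the ileum apart. There Fabp6, the ileal bile acid binding protein, was at 0.1 to 50.5 CPM after RYGB and 0 to 22.9 CPM after sham, and was not called. Slc10a2, the ileal bile acid transporter, was at 1.6 to 53.7 CPM after RYGB and 0.2 to 2.5 CPM after sham, and was called higher. Gata4, a factor of the more proximal intestine, was at 105 to 183 CPM in the libraries labelled ileum, against 136 to 246.8 CPM in the duodenum. The word ileum below therefore stands for the label.

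The genes differed in where they were abundant more than they differed between surgeries. In the sham livers, per kilobase of exon, the order of the mean levels was Apoa2 with 8853 CPM per kb, Apoe with 5367, Apoa1 with 3994, Apoc1 with 3547, Apoc3 with 1560, Apoh with 1266, Apoc2 with 354, Apoa5 with 334, Lcat with 244 and Apom with 213. Neighbours in this order overlapped between libraries, except Apoa2 over Apoe, Apoc1 over Apoc3 and Apoh over Apoc2. In the RYGB livers Apoh stood above Apoc3 and Apoa5 above Apoc2, with libraries that overlapped in both pairs. In the villi the order was Apoa1, then Apoc2, then Apoc3, each mean below the one before it in all 6 groups. Apoe and, where listed, Apoa2 were far below them, at means of at most 10.8 CPM per kb.

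Apoa2 shows the contrast between the organs most plainly. Its level in the liver lay between 3112.6 and 5755.9 CPM over the 8 libraries. In the duodenum it lay between 0.9 and 3.8 CPM and in the jejunum between 0.7 and 2.5 CPM, and the ileal table did not list it. Apoa1 and Apoc2 were abundant in both organs, Apoa1 with 2828.6 to 7399.6 CPM in the liver and 5712 to 22362.9 CPM over the villi, and Apoc2 with 194.4 to 404.1 CPM in the liver and 504.3 to 3407.4 CPM over the villi. The tables were normalized separately, so these levels are set side by side without a test. For these 3 genes the upstream sequence is shown as RefSeq gives it for GRCm38.p6, 5′ to 3′ on the strand of the gene. It ends just before the RefSeq transcription start for Apoa2 and Apoc2. The windows are chr9:46228380-46228579 on the plus strand for Apoa1, chr1:171224804-171225053 on the plus strand for Apoa2 and chr7:19677942-19678191 on the minus strand for Apoc2. They are 250 bases long, and 200 for Apoa1, where the annotated gene begins ahead of the RefSeq start. The Apoa1 window ends just before the annotated gene, so it lacks the bases next to the RefSeq start. Capitals mark matches to the motifs searched.
Apoa1: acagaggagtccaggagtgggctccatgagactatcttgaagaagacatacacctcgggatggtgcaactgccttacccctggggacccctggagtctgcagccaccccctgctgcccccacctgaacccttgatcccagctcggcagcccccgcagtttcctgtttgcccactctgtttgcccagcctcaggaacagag
Apoa2: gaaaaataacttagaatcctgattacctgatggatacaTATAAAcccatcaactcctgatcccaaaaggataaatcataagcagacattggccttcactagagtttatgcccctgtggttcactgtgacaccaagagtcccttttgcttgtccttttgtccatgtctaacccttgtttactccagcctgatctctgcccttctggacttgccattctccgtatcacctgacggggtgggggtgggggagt
Apoc2: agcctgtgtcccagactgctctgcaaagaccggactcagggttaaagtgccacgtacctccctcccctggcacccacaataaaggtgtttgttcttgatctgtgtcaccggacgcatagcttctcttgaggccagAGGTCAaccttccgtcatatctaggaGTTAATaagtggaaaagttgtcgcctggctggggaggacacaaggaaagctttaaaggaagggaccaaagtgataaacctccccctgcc
The letters searched, on both strands, were AGGTCA (the core of many nuclear receptor sites), TATAAA (the TATA box), GTTAAT (a part of an HNF1 site) and TGACGT (a part of a cAMP response element). The Apoc2 window held AGGTCA at bases -115 to -110 and GTTAAT at -89 to -84 before the start, and the Apoa2 window shown held TATAAA at -212 to -207. Apoa2 has another RefSeq start, with the window chr1:171221314-171221563, which is not shown. That window held TGACCT, the reverse complement of AGGTCA, at -238 to -233. None of the 4 was in the shorter Apoa1 window, which does not cover the bases next to the RefSeq start. Of 32851 mouse promoters of 250 bases, 14% held AGGTCA, 12.4% TATAAA, 6.43% GTTAAT and 6.47% TGACGT, so single matches are common, and they are a description only. RefSeq promoter entries were found for 8 of the 10 genes; Apoc1 and Apoc3 had none.

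The genes lie in several places of the genome (GRCm38, GENCODE M21). Apoa1 (chr9:46228580-46230466, plus strand), Apoc3 (chr9:46232933-46235636, minus strand) and Apoa5 (chr9:46268633-46271919, plus strand) share a cluster of 43340 bases with Apoa4. Apoc2 (chr7:19671579-19677941), Apoc1 (chr7:19689481-19692660) and Apoe (chr7:19696109-19699188), all on the minus strand, share 27610 bases with Apoc4. Apoa2 is on chromosome 1, Apoh on chromosome 11, Apom on chromosome 17 and Lcat on chromosome 8. All are protein-coding, and the counts cover their exons. Of the exonic bases of Apoc2, 646 of 813 are shared with Gm44805, a protein-coding gene model on the same strand, and 524 bases of Apoa5 are shared with the antisense gene Gm47544. Neither was listed in any of the 6 tables, and how reads over shared exons were assigned is not given in the sources used here. Apoh shares 30 exonic bases with Prkca on the opposite strand, which all 6 tables listed.

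In the liver, which secretes most plasma apolipoproteins, Apoc3 was the only gene of the 10 that was called, and it was lower after RYGB. Against this 1 of 10, 7.08% of all 11807 liver genes tested were called, and 1.29% were called lower, so the count itself sits near the background. Apoc3 was at 1403.2, 856.9, 734.6 and 997 CPM in RYGB 1 to 4, and at 1775.6, 1534.6, 1618.5 and 1398.5 CPM in sham 1 to 4. RYGB 1 reached the range of the sham group and the other RYGB libraries were all below it. The means were 997.9 ± 291 CPM after RYGB and 1582 ± 158 CPM after sham (SD, n = 4 each). The log2 fold change was -0.70 (SE 0.195, 95% interval -1.13 to -0.27), with an adjusted p of 0.0497 by limma. This call is at the edge of the threshold. It was lost when any library other than RYGB 1 was left out, with adjusted p-values of 0.0751 to 0.139, while without RYGB 1 the adjusted p was 0.0120. Within sequencing lanes, Apoc3 was lower after RYGB by differences of -0.13, -0.81 and -1.05 (log2) in lanes 2, 3 and 4.

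Of the other C genes in the liver, Apoc1 stood at 2817.2, 1727.4, 1522.2 and 1720.3 CPM in RYGB 1 to 4 and at 2850.8, 2125.4, 3058.3 and 2520.3 CPM in sham 1 to 4. As with Apoc3, RYGB 1 alone lay among the sham libraries. Its log2 fold change of -0.47 (95% interval -0.94 to 0.00) was not called, with an adjusted p of 0.188. Apoc2, the activator of lipoprotein lipase, was at 251.9 ± 41.2 CPM after RYGB and 287.9 ± 88.5 CPM after sham. Its interval ran from -0.60 to 0.30, and the groups overlapped widely.

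The A genes of the liver were not called either. Apoa2 was at 4388.3, 3477.6, 3112.6 and 3526.4 CPM in RYGB 1 to 4 and at 4785.9, 4045.7, 5755.9 and 4428.6 CPM in sham 1 to 4, with a log2 fold change of -0.39 (-0.81 to 0.03) and an adjusted p of 0.214. Only RYGB 1 was inside the sham range. Apoa1 had close means, 4689 ± 876 CPM after RYGB and 4937 ± 1885 CPM after sham, and a fold change of -0.01 (-0.65 to 0.62). Apoa5, which favours clearance of triglyceride, had a fold change of -0.01 (-0.46 to 0.44). The sham libraries spread most for these genes. Sham 1 had the highest Apoa1 of the 8 livers, 7399.6 CPM, together with the lowest Apoa5, 651.5 CPM, and the lowest Apoc2, 194.4 CPM. Sham 3 had the lowest Apoa1, 2828.6 CPM, and the highest Apoa5 and Apoc2, 1225.2 and 404.1 CPM.

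Apoe, the most abundant of the genes in liver CPM, was at 10432 ± 1926 CPM after RYGB and 11474 ± 2202 CPM after sham, a fold change of -0.14 (-0.67 to 0.40). Lcat was the gene with the clearest difference upward. It was at 429.5, 402.9, 365.7 and 428.3 CPM in RYGB 1 to 4 and at 384.6, 263.8, 355.6 and 303.8 CPM in sham 1 to 4, so that RYGB 3 lay below sham 1. The fold change was 0.33 (0.03 to 0.62), which an adjusted p of 0.151 did not place past the threshold. Apom was at 0.13 (-0.17 to 0.43) and Apoh at -0.14 (-0.48 to 0.20), both within the spread of the libraries. Over the 10 genes the median log2 fold change was -0.14, beside 0.13 for all liver genes tested. Together they took 2.55% ± 0.376 of the listed CPM after RYGB and 2.95% ± 0.332 after sham, and these shares overlapped.

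**Figure D1:**
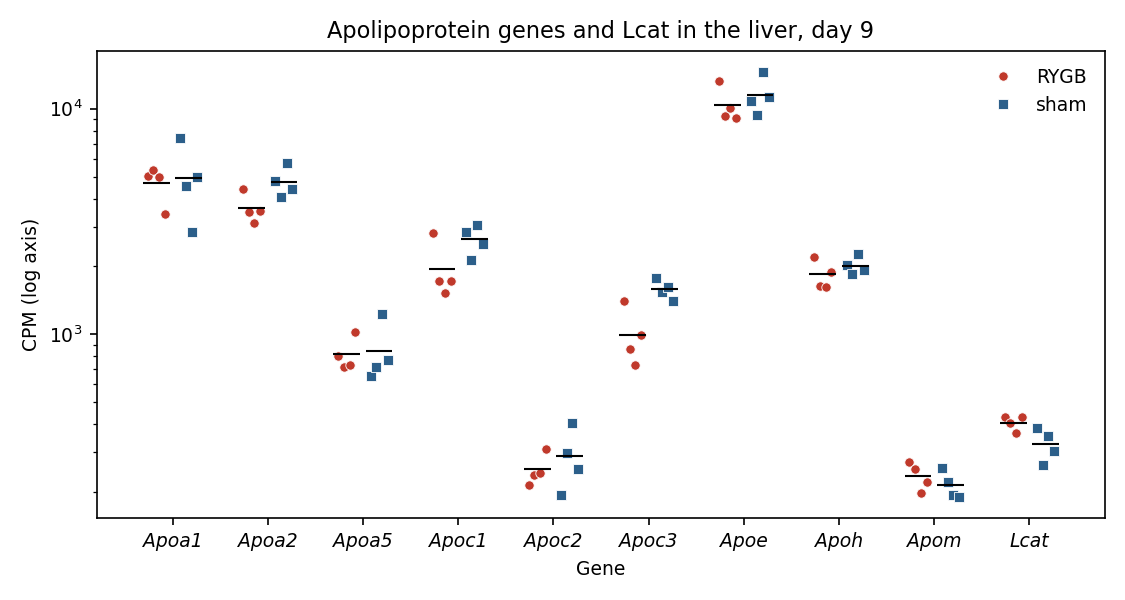
CPM of each of the 10 genes in each liver library on a log axis, with RYGB as circles, sham as squares and group means as bars (n = 4 each). For Apoc3 the RYGB libraries other than RYGB 1, which is at 1403.2 CPM, lie below all sham libraries (1398.5 to 1775.6 CPM).

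Markers of other cell types moved in the same livers. Of 12 macrophage markers 3 were called higher after RYGB (Gpnmb, Trem2 and Cd68), and the list summed to between 784.5 and 1729.7 CPM after RYGB and between 479.8 and 844.5 CPM after sham. Clec4f, Vsig4 and Timd4, the markers of resident Kupffer cells, were not called. The 3 listed neutrophil markers summed to 32.5 to 440.4 CPM after RYGB and 10.5 to 16.6 CPM after sham. The 5 markers of stellate cells and fibroblasts summed to 383.8 to 739.8 CPM and 279.9 to 364.4 CPM. Hepatocyte markers summed to 92743 to 127775 CPM after RYGB and 88167 to 103757 CPM after sham, and none of the 7 was called. The part of these cells in the liver values of Apoc3, Apoe and the other genes was not tested.

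The genes that work with the set were read from fixed lists. Among the other apolipoproteins and their partners, 3 of 11 tested in the liver rose and none fell, where 5.79% of all liver genes were called higher and 1.29% lower. Apoa4, the neighbour of Apoc3 in the cluster on chromosome 9, rose from 816.2 ± 383 CPM to 2470 ± 655 CPM, a log2 fold change of 1.65 with an adjusted p of 0.0100 by limma. Apobr, a receptor for Apob-containing particles, rose by 1.05, and Apobec1, the editing enzyme of the Apob transcript, rose by 0.64, both on the log2 scale. Apob itself had a fold change of 0.32 (-0.19 to 0.84) and was not called. Of 8 lipolysis genes 1 rose, Lpl, the lipase that Apoc2 activates, from 30.18 ± 4.63 to 92.48 ± 23.3 CPM, a log2 fold change of 1.56 with an adjusted p of 0.00185 by limma. Among 10 HDL genes 1 rose, Abcg1, a cholesterol exporter of macrophages and other cells, by 1.13 on the log2 scale. None of 9 genes of particle assembly and none of 9 receptors and their regulators was called. Of 18 transcription factors 1 rose, the coactivator Ppargc1a (0.72), and 2 fell, among them Mlxipl, the carbohydrate response factor (-0.60).

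Within a library, the ratio of Apoa4 to Apoc3 does not depend on the scaling of that library. It was 1.19, 3.58, 3.01 and 2.95 in the RYGB livers and 0.340, 0.430, 0.859 and 0.437 in the sham livers. Every RYGB liver was above every sham liver. Among all liver genes taken singly, 16.4% had groups that did not overlap. The ratio was chosen after values were seen and combines a gene called higher with a gene called lower, so it describes the same calls in each library and adds no test. The ratio of Apoa4 to Apoa1, from genes of the same cluster, overlapped in the liver, with 0.333 to 0.864 after RYGB and 0.0815 to 0.491 after sham.

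**Figure D2:**
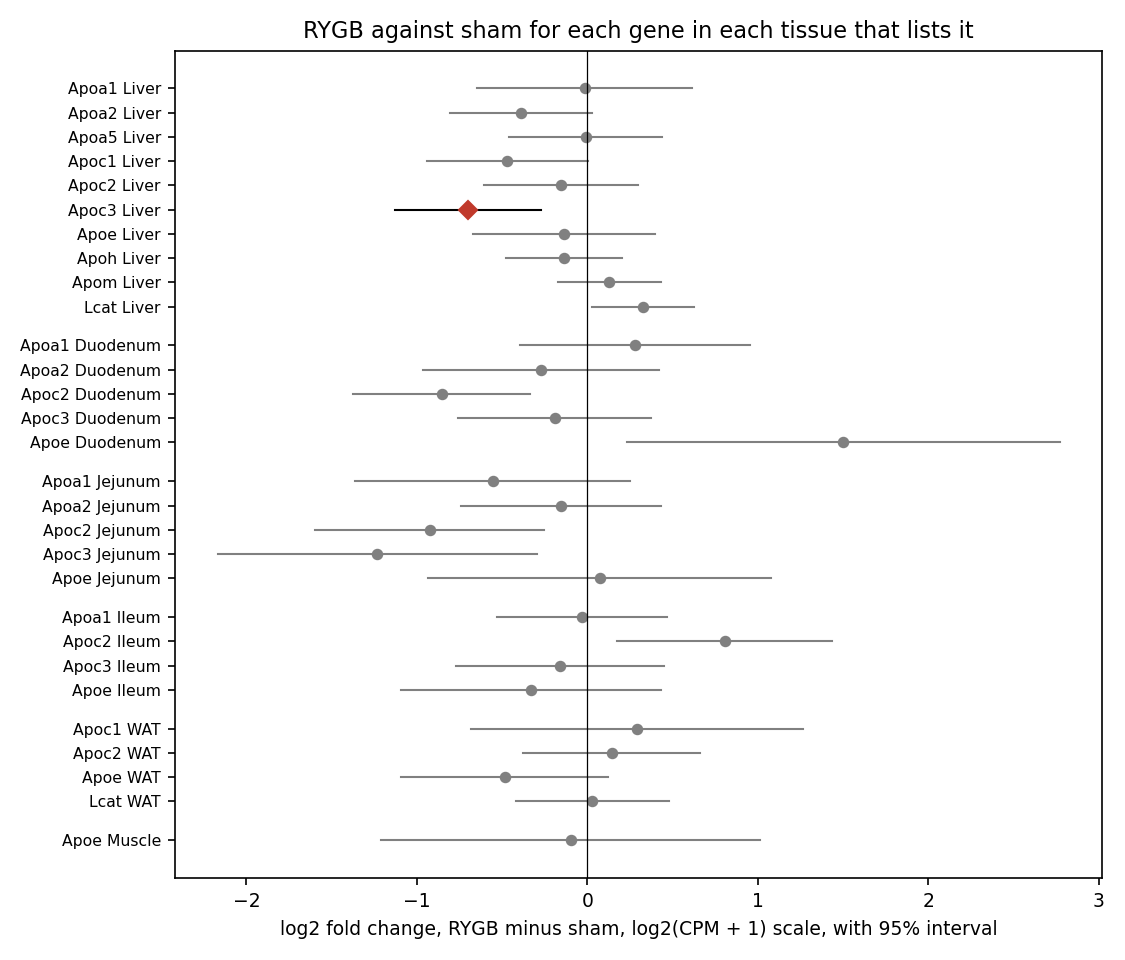
log2 fold change, RYGB minus sham, of each gene in each tissue that lists it, on the log2(CPM + 1) scale, with 95% intervals from limma. The diamond is liver Apoc3 (-0.70), the only value that was called; the points for Apoc2 lie at -0.85 in duodenum, -0.92 in jejunum and 0.81 in ileum.

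In the duodenum, which food no longer passes after RYGB, none of the 5 listed genes was called, beside 0.00922% of all 10850 genes tested. That share rested on sham 4, since 6.97% were called without it, none of the 5 genes among them. Apoc2 had the most even difference. It was at 1244.2, 1548.8 and 1246.4 CPM in RYGB 1 to 3 and at 3115.3, 2523.6, 2209.8 and 1983.6 CPM in sham 1 to 4. Every RYGB library was below every sham library, as for 2.93% of all duodenal genes. The log2 fold change was -0.85 (SE 0.228, 95% interval -1.38 to -0.33), with an unadjusted p of 0.00513 by limma and an adjusted p of 0.147. Leaving out single libraries kept it between -0.96 and -0.73. Sham 1 and sham 2 also held 1978.8 and 4817.2 CPM of Cela1, an elastase of pancreatic acinar cells, against 9.8 and 7.1 CPM in sham 3 and sham 4 and 5.9 to 517.5 CPM in the RYGB libraries. The 7 listed enterocyte markers, of which 0 was called, were uneven among the sham libraries. Anpep ranged there from 186.2 to 8810.9 CPM and Lct from 149.4 to 4681.5 CPM, while Fabp2 ranged less, from 4629.2 to 8396.5 CPM. The part of pancreatic tissue and of this spread in the Apoc2 values was not tested.

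The other abundant genes of the duodenum differed less. Apoa1 was at 8138.6, 9064.2 and 6935.6 CPM in RYGB 1 to 3 and 6389.7, 5712, 6101.9 and 8475.1 CPM in sham 1 to 4, a fold change of 0.28 (-0.40 to 0.95). Apoc3 had a fold change of -0.19 (-0.76 to 0.37), and Apoa2, at a few CPM, one of -0.27 (-0.97 to 0.42). Apoa1 and Apoc2 thus stood apart within a library. Their ratio was 5.56 to 6.54 in the RYGB libraries and 2.05 to 4.27 in the sham libraries, with no overlap. The ratio of Apoa4 to Apoa1 did not overlap either, at 1.87 to 2.40 after RYGB and 2.69 to 4.48 after sham. Among all duodenal genes taken singly, 15.6% had groups that did not overlap. Both ratios were chosen after values were seen, and that of Apoa1 to Apoc2 rests in part on the Apoc2 values above, so they add no test.

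Apoe was a minor transcript of the duodenum. It was at 31.5, 12.3 and 25.5 CPM in RYGB 1 to 3 and at 18.8, 8.7, 2.6 and 4.8 CPM in sham 1 to 4, and RYGB 2 lay below sham 1. The fold change was 1.5 (0.23 to 2.77), with an adjusted p of 0.211. The 4 listed macrophage markers, of which none was called, summed to 12.9 to 28.1 CPM after RYGB and to 3.2 to 13 CPM after sham. The libraries with more of these markers were the ones with more Apoe, and the part of macrophages in the Apoe values was not tested. T cell markers summed to 33.9 to 77 CPM after RYGB and 10.1 to 38.2 CPM after sham, and crypt markers to 26.1 to 119.2 CPM and 3.8 to 20.2 CPM. No gene of the 6 fixed lists was called in the duodenum.

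In the jejunum 9.75% of 10854 genes were called and none of the 5 listed genes was among them. Both C genes had means below those of the sham group. Apoc3 was at 1026.4, 355.6 and 329.2 CPM in RYGB 1 to 3 and at 1295.4, 1006.7, 737.9 and 1884 CPM in sham 1 to 4. RYGB 1 was inside the sham range, and the other RYGB libraries were below it. The fold change was -1.23 (SE 0.421, 95% interval -2.17 to -0.29), with an adjusted p of 0.0978. Apoc2 was at 2055.9, 971.7 and 1147.1 CPM in RYGB 1 to 3 and at 1937.3, 2914.8, 2043.5 and 3407.4 CPM in sham 1 to 4, again with RYGB 1 among the sham libraries. Its fold change was -0.92 (-1.60 to -0.25), with an adjusted p of 0.0863. Without RYGB 1, which left only RYGB 2 and RYGB 3 in the group, both genes passed the threshold. Apoc3 was then at -1.76 (adjusted p 0.0138 by limma) and Apoc2 at -1.25 (adjusted p 0.0266 by limma). Neither was called when any other single library was left out. Over all single omissions the fold change was -1.76 to -0.94 for Apoc3 and -1.25 to -0.71 for Apoc2. RYGB 2 was sequenced in a different lane from the other jejunal libraries. Within lane 1 the difference was -0.996 for Apoc3 and -0.71 for Apoc2.

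Apoa1 in the jejunum was at 12526.1, 10763.3 and 6851.9 CPM in RYGB 1 to 3 and at 17854.5, 8923.2, 11762.8 and 22362.9 CPM in sham 1 to 4. The sham libraries spread more than the groups differed, and the fold change was -0.55 (-1.36 to 0.25). Apoe, at 2.8 to 13.6 CPM over both groups, had a fold change of 0.07 (-0.93 to 1.08), and Apoa2 one of -0.15 (-0.74 to 0.43). The median over the 5 genes was -0.55, beside -0.04 for all jejunal genes tested. They took 1.20% ± 0.364 of the listed CPM after RYGB and 1.91% ± 0.677 after sham, and the groups overlapped.

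Calls in the fixed lists of the jejunum came from 3 of the 6 lists, beside the 9.75% of all jejunal genes. Apoa4, a protein of chylomicrons, fell from 40878 ± 11529 to 15425 ± 7385 CPM, a log2 fold change of -1.47 with an adjusted p of 0.0337 by limma. Every RYGB library was below every sham library for it, as for 12.5% of all jejunal genes. The ratio of Apoa4 to Apoa1, also chosen after values were seen, was 1.14 to 1.90 after RYGB and 2.19 to 4.20 after sham, and adds no test. Saa1, an acute-phase protein carried on HDL, rose by 3.31, and Apobec1 rose by 1.06, which made 2 that rose and 1 that fell among 5 tested. Of 9 receptors and regulators 3 rose and 1 fell. Among those that rose, Sdc1, a heparan sulfate proteoglycan that binds remnants, did so by 1.09, and Mylip, a ligase that marks lipoprotein receptors for degradation, fell by 1.99 on the log2 scale. Nr0b2 (-2.25), Nr1d1 (-1.21) and Ppara (-1.02) were the 3 that fell among 17 transcription factors, and none rose. No gene of particle assembly, of HDL remodelling or of lipolysis was called among 10, 5 and 5 tested. All 4 T cell markers fell in the jejunum, with sums of 5.4 to 12.4 CPM after RYGB and 30.7 to 49.8 CPM after sham. The 7 listed enterocyte markers, of which 1 (Lct) fell, summed to 26394 to 37069 CPM and 30922 to 43101 CPM. Of the 4 listed segment markers 1 fell, Cyp4v3 (-1.39), and 0 rose. They summed to 725.5 to 909.2 CPM after RYGB and 1251.2 to 2172.6 CPM after sham. The part of cell composition and of segment position in the jejunal values was not tested.

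In the ileum 6.05% of 10735 genes were called and none of the 4 listed genes was among them. Here Apoc2 had a higher mean after RYGB. Its CPM were 2240.7, 2506.6, 2092.9, 1936.3 and 1545.6 in RYGB 1 to 5 and 1252.2, 1742.6, 1236.8, 504.3 and 1582 in sham 1 to 5. Only RYGB 5 lay within the sham range, and sham 4 lay far below the other sham libraries. The fold change was 0.81 (SE 0.291, 95% interval 0.17 to 1.44), with an unadjusted p of 0.0169 by limma and an adjusted p of 0.103. Without sham 4 it was 0.50, with an adjusted p of 0.106. The fold changes of Apoc2 thus had opposite signs in the duodenum and in the ileum, and this difference was not tested. In the ileum all RYGB libraries were run in other lanes than the sham libraries, so the lane and the surgery cannot be told apart. Of the 5 markers of intestinal segments 1 was called higher in the ileum, Slc10a2, and 0 were called lower. Another of them, Cyp4v3, was at 1065.7 to 1382.8 CPM after RYGB and 1654.4 to 1852 CPM after sham. Its log2 fold change was -0.58, with an adjusted p of 0.0137 by limma. It was not called because sham exceeded RYGB by a fold of 1.49, just under 1.5. The part of segment position in the Apoc2 values was not tested.

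Apoa1 had close means in the ileal groups, 12740 ± 2820 CPM after RYGB and 12943 ± 2546 CPM after sham (n = 5 each). Its fold change was -0.03 (-0.53 to 0.47), an interval that leaves room for a change in either direction. Apoc3 had a fold change of -0.16 (-0.77 to 0.45) and Apoe, at 2.1 to 10.8 CPM, one of -0.33 (-1.09 to 0.43). Of the fixed lists, Sar1b, the coat GTPase that moves chylomicrons out of the endoplasmic reticulum, was the 1 of 10 assembly genes called, and it rose by 0.59. Mttp, which loads lipid onto Apob, had a fold change of 0.60 (0.15 to 1.05) and was not called. Lrp1, a remnant receptor, fell (-0.69), the 1 of 9 receptors and regulators called. Of 16 transcription factors 1 rose, Nr0b2 (1.65), and 1 fell. None of 5 HDL genes, 5 lipolysis genes and 5 other apolipoproteins was called. Apoa4 had a fold change of 0.42 (-0.42 to 1.26). T cell markers fell in the ileum too, all 3 listed, with sums of 3.6 to 13.7 CPM after RYGB and 19 to 49.3 CPM after sham.

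**Figure D3:**
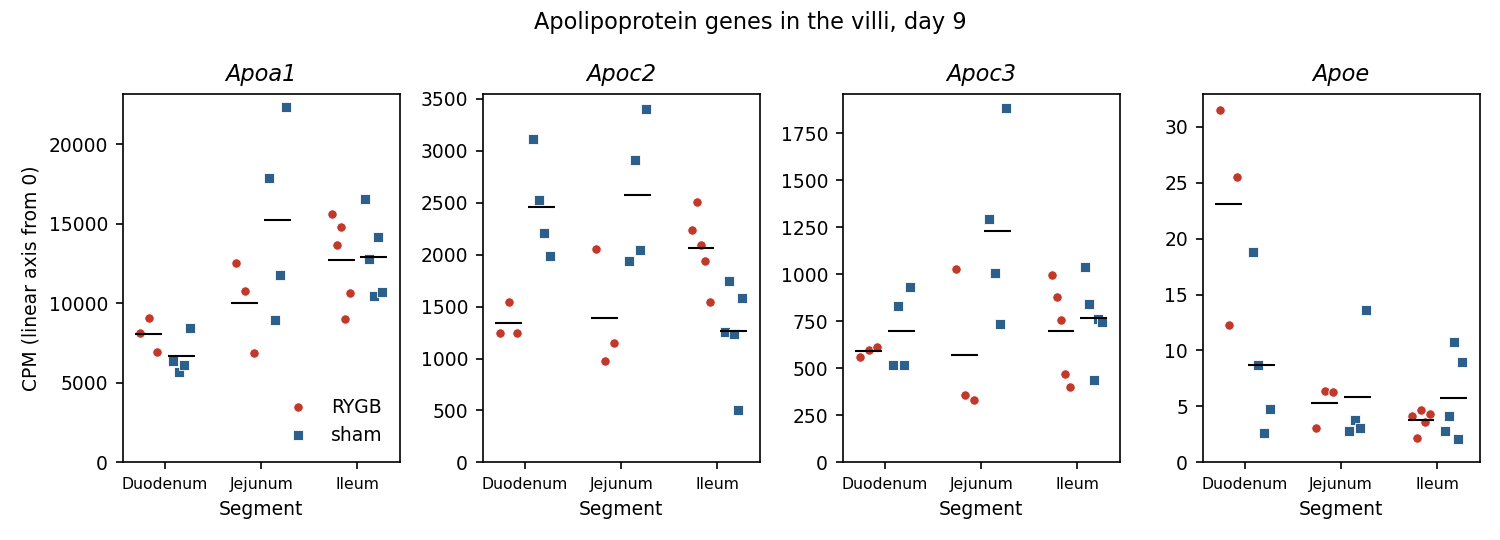
CPM of Apoa1, Apoc2, Apoc3 and Apoe in each library of the 3 intestinal segments, on linear axes from 0, with RYGB as circles, sham as squares and group means as bars. Apoc2 is at 1244.2 to 1548.8 CPM in the duodenal RYGB libraries, below all duodenal sham libraries (1983.6 to 3115.3 CPM), while most ileal RYGB libraries are above the ileal sham libraries.

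**Figure D4:**
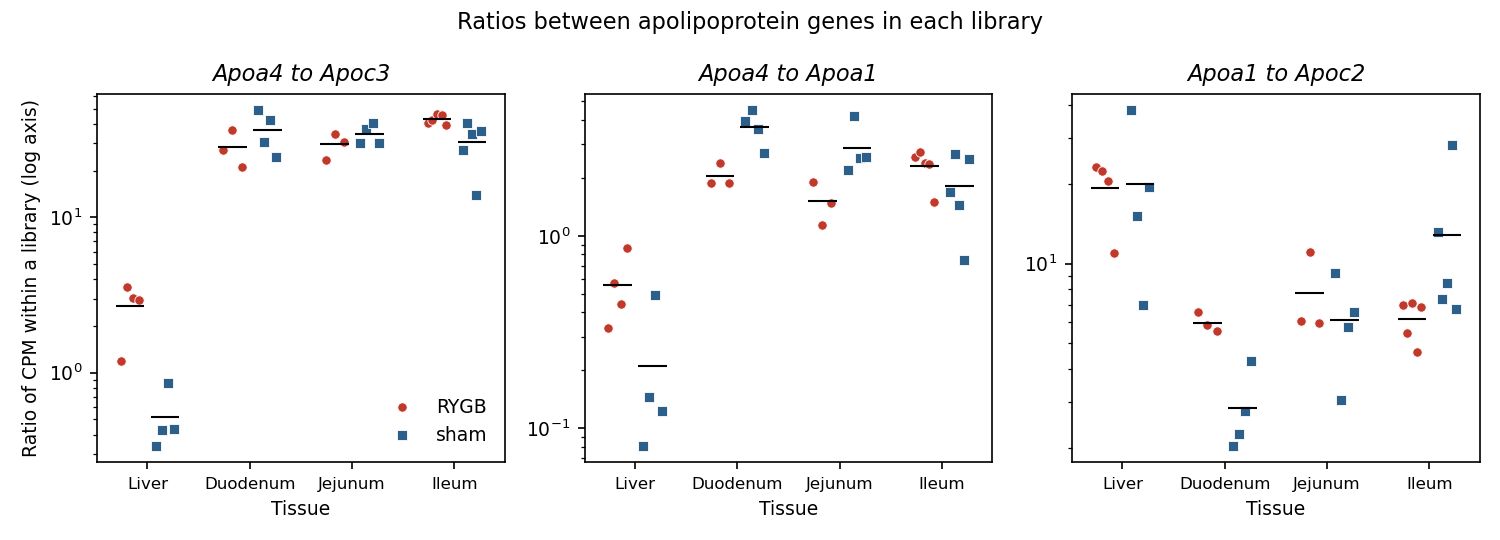
Ratio of CPM within each library on log axes for Apoa4 to Apoc3, Apoa4 to Apoa1 and Apoa1 to Apoc2, with RYGB as circles, sham as squares and group means as bars. The groups do not overlap for Apoa4 to Apoc3 in the liver (1.19 to 3.58 after RYGB, 0.340 to 0.859 after sham), nor for Apoa1 to Apoc2 in the duodenum. They also do not overlap for Apoa4 to Apoa1 in the duodenum and the jejunum. The ratios were chosen after values were seen.

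In subcutaneous WAT, 24.1% of 13379 genes were called and none of the 4 listed genes was among them. Apoe, which adipocytes and macrophages make, was the abundant one. It was at 3615.1, 3611.2, 2989.9 and 2462 CPM in RYGB 1 to 4 and at 4430, 4128, 5047.9 and 4001.8 CPM in sham 1 to 4. Every RYGB library was below every sham library, as for 15% of all WAT genes. The fold change was -0.49 (SE 0.268, 95% interval -1.09 to 0.12), with an adjusted p of 0.174. Apoc1, the neighbour of Apoe, was at 96.2, 71.5, 46.7 and 20.4 CPM in RYGB 1 to 4 and at 57.8, 40.7, 43.3 and 28.5 CPM in sham 1 to 4, with a fold change of 0.29 (-0.68 to 1.26). Apoc2 and Lcat were at 1.4 to 3.5 CPM in both groups, with fold changes of 0.14 (-0.37 to 0.66) and 0.03 (-0.42 to 0.48).

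The WAT libraries differed in their cell markers. B cell markers, 4 of 4 called higher, summed to 551.8 to 1499.5 CPM after RYGB and to 5 to 12.5 CPM after sham. T cell markers, also 4 of 4, summed to 165.2 to 629.1 CPM and 4.7 to 9.5 CPM. The 11 listed macrophage markers, of which 5 fell and 1 rose, summed to 1056.9 to 2015.3 CPM after RYGB and 2257.9 to 3705.1 CPM after sham. The 5 adipocyte markers, of which 1 (Lep) fell, summed to 6341.7 to 11912.9 CPM and 13370 to 19921 CPM. Keratinocyte markers, 2 of 2 listed called lower, summed to 0.1 to 0.3 CPM after RYGB and 2.2 to 120.8 CPM after sham. None of these sums overlapped between the groups. Their part in the WAT values of Apoe, Apoc1 and the genes of the fixed lists, Clu among them, was not tested. Among the fixed lists, Clu, an apolipoprotein of HDL and a chaperone, was the 1 of 5 other apolipoproteins called and rose from 31.9 ± 1.83 to 525.9 ± 301 CPM. Of 9 HDL genes Pltp, the phospholipid transfer protein, fell (-1.40), as did the HDL receptor Scarb1 (-0.75), and of 8 lipolysis genes 4 fell, among them Angptl4 (-1.37) and Gpihbp1 (-1.23), which anchors lipoprotein lipase in capillaries. Of 9 receptors 1 rose, Lrp8 (2.07), which binds Apoe, and 2 fell, Lrp1 (-1.08) and Sdc1 (-1.23). Of 15 transcription factors 1 rose, Nr2f1 (0.65), and 2 fell, Creb3l3 (-0.78) and Nr5a2 (-0.60). No gene of particle assembly was called among 7.

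Muscle listed Apoe alone, at 139.3, 89.5, 75 and 59.1 CPM in RYGB 1 to 4 and 49.5, 67.4, 298.2 and 72.6 CPM in sham 1 to 4. No muscle gene was called by limma, which made 0% of 11966, although 1746 had an unadjusted p under 0.05. The count of called genes was 57 without sham 3 and 210 without RYGB 4, with Apoe in neither. Apoe had a fold change of -0.10 (-1.21 to 1.02). Sham 3 decided the sign, since without it the value was 0.46, with an adjusted p of 0.308. In that library the 5 adipocyte markers summed to 931.2 CPM, against 131.4 to 388 CPM in the other muscle libraries. The 8 listed macrophage markers were also highest there, with a sum of 153.6 CPM against 42.7 to 128.4 CPM in the other muscle libraries. The part of fat tissue and of macrophages in the Apoe values was not tested. Within lane 2 the difference was 0.94. No gene of the fixed lists was called in muscle.

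**Figure D5:**
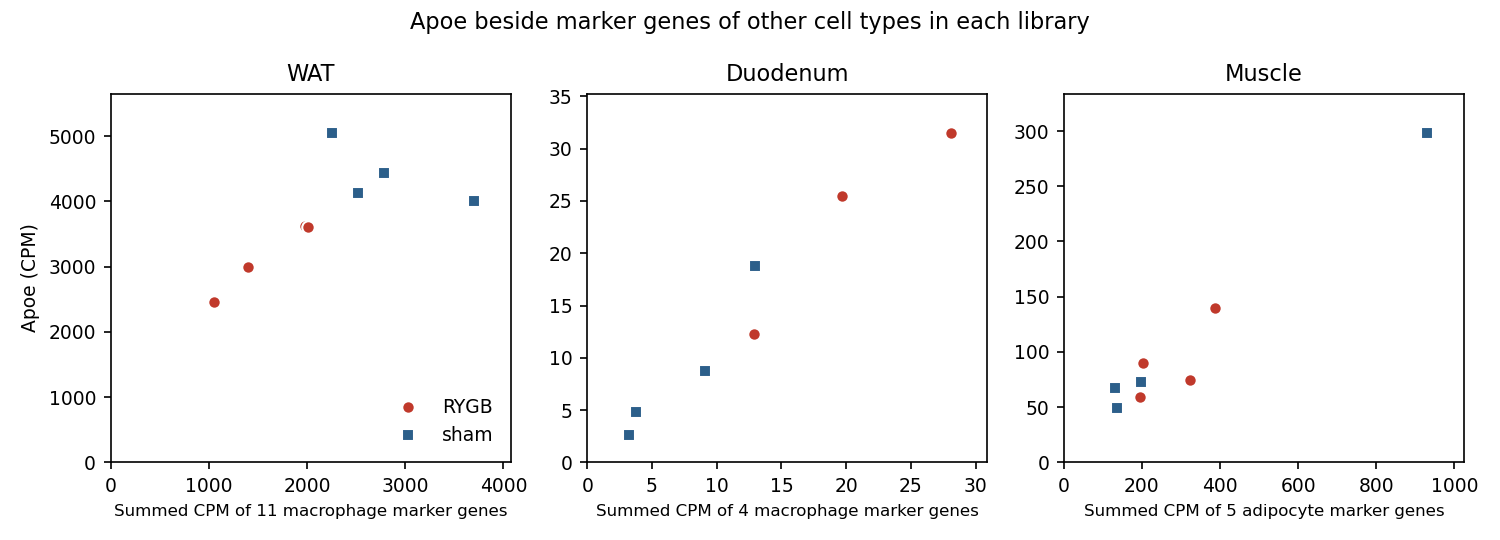
Apoe CPM of each library against the summed CPM of marker genes for another cell type (macrophage markers in WAT and duodenum, adipocyte markers in muscle), on linear axes from 0, with RYGB as circles and sham as squares. In muscle, sham 3 holds 298.2 CPM of Apoe and 931.2 CPM of adipocyte markers, and in the duodenum the libraries with more macrophage markers have more Apoe.

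The genes whose levels ran most like each of the 10 were named by Pearson's r, as a description over few libraries that share tissue and scaling. Apoe, listed in all 6 tables, was compared over the 12 group means, and the closest genes were Cnn3, Psmg1 and Slc25a23 (r of 0.990 to 0.992). The other genes were compared over the 8 livers. Closest to Apoc3 were Tmem86b, Ptms and Gchfr (0.965 to 0.987), to Apoa2 Serpina1b, Car1 and Dcxr (0.959 to 0.970), and to Apoc1 Klf1, Car1 and Ethe1 (0.942 to 0.970). Apoa1 was followed by Zfp276, Asap3 and Tmem37 (0.920 to 0.964), and Apoh by Abhd14b, Sardh and Pcsk4 (0.958 to 0.961). For Apoa5 they were Sirt3, Gnpda1 and 4930523C07Rik (0.924 to 0.942), for Apoc2 Suclg1, Adhfe1 and Mterf1a (0.883 to 0.927), for Apom Spryd4 and Per1 (0.929 and 0.912), and for Lcat Mt2, Agt and Fbxo31 (0.911 to 0.923). The search covered 11775 liver genes, so values of this size over 8 libraries are a ranking only.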

How the data were processed

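The expression of the 10 genes was measured by mRNA sequencing (Illumina TruSeq Stranded mRNA kit) of 48 libraries. The values are CPM as deposited by the authors in 1 table for each tissue, rounded to 0.1. The column sums settled the unit. The submitters' processing notes name HTSeq and GRCm38; the aligner, the annotation, the filter on genes and the use of strand are not given in the sources used here. Repeated lines of a gene held equal values and were used once, and 12 misaligned lines of the liver table, none of a gene named here, were left out. Genes were identified by Ensembl ID.

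Groups came from the sample labels. In every tissue limma 3.58.1 was used for RYGB against sham (R 4.3.3, empirical Bayes with a trend) on log2(CPM + 1), over genes averaging 1 CPM or more, with Benjamini-Hochberg adjustment over the tissue. The script was tested on simulated data. Depth is unknown, so precision rests on the spread between libraries. Since CPM are not counts, no count model was used. Tables were prepared with Python 3.11.15 and pandas 2.3.3. Named genes were every one of the 10 and, from each fixed list and tissue, at most 2 genes with the largest rise and 2 with the largest fall among those called; Apob, Mttp, Ppara, the values of Apoa4 outside liver and jejunum and the ratios were chosen after values were seen, as was Sdc1 in the jejunum. Some genes of the lists and of the like patterns are not reported here. The genes and lists were chosen with earlier results of these data known. Alternatives were other filters, a pseudocount of 0.1, median ratio scaling, the lane, a replicate block and leaving out single libraries.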

Additional observations from a re-analysis of the deposited data

Results flagged for a closer look

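A library far from the rest of its group was looked for in each of 48 sets of 4 or 5 values, one gene in one group,, where chance alone gives about 2.4, and 4 were found. In the liver, RYGB 4 had 3399.1 CPM of Apoa1 against 4988.1 to 5358.6 CPM in the other RYGB livers, a gap of 0.843 of the whole range. In the ileum, sham 4 had 504.3 CPM of Apoc2 against 1236.8 to 1742.6 CPM elsewhere in its group, which left 0.723 of the range as gap, and this library enlarges the ileal difference of Apoc2. In WAT, Lcat was at 1.5 CPM in RYGB 1 against 2.6 to 2.8 CPM (0.871 of the range) and at 1.5 CPM in sham 2 against 2.5 to 2.7 CPM (0.858 of the range), differences of about 1 CPM in values rounded to 0.1.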

How the results depend on the processing

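Of 159 refits of the 29 gene and tissue values that kept all libraries, 148 kept their sign and side of the threshold. The liver count of 1 called gene fell to 0 when genes had to average 10 CPM (Apoc3 adjusted p 0.0510), with median ratio scaling (0.0601) and with lane as a covariate (0.0547), and was 0 to 2 when single libraries were left out, 2 without RYGB 1 (Apoc1 then had an adjusted p of 0.0406) and 0 without each other library. The jejunal count of 0 became 1 with a replicate block (Apoc3, -0.999, adjusted p 0.0331 by limma) and 0 to 2 when single libraries were left out. Whether the replicate numbers pair mice cannot be told from these values. Same-numbered libraries had correlations of -0.28 to 0.39, which groups this small leave undecided. The replicate block changed no other call of the 10 genes. Over all genes, that block raised the calls from 1 to 268 in the duodenum and from 0 to 184 in muscle. The sign turned for Apoa5 in the liver (0.033) and Apoe in jejunum (-0.071) and muscle (0.94) with lane, for Apoa2 in jejunum (0.011) with the replicate block, and for Apom in the liver (-0.022), Apoa1 in the ileum (0.076) and Lcat in WAT (-0.053) with median ratio scaling, all values that were not called; the cause was not tested. Scaling moved the median of all genes from 0.13 to -0.01 in the liver, from 0.12 to 0.0045 in the duodenum and from 0.11 to -0.0012 in WAT. Leaving out single libraries turned the sign for Apoa1 (-0.25 to 0.21), Apoa5 (-0.12 to 0.19) and Apoc2 (-0.33 to 0.025) in the liver, Apoa2 (-0.34 to 0.011) and Apoe (-0.13 to 0.52) in jejunum, Apoa1 (-0.11 to 0.086) and Apoc3 (-0.35 to 0.018) in ileum, Apoc1 (-0.011 to 0.72), Apoc2 (-0.018 to 0.28) and Lcat (-0.10 to 0.17) in WAT, and Apoe in muscle (-0.39 to 0.46). Lane could not be fitted in the duodenum, which had 1 lane, or in the ileum. Depth is unknown, and rounding to 0.1 limits genes near 1 CPM.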
